A study of Mus musculus with 96 samples.

Results

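The genes described here encode the subunits of the mitochondrial respiratory chain and of ATP synthase, with cytochrome c and the assembly factors that share their names. They were chosen by gene symbol: every probe symbol starting with Nduf, Uqcr, Atp5, Cox4, Cox5, Cox6, Cox7 or Cox8, plus Sdha, Sdhb, Sdhc, Sdhd and Cycs, with the brightest probe standing for each gene. This rule found 87 genes on 127 probes, among 17658 genes that the array's 46116 probes name by 1 symbol. Gonadal fat and liver had been taken from 48 mice of an F2 intercross of M16i and MB2, all 15 weeks old, and each mouse gave 1 fat and 1 liver array. The labels put 12 mice in each of 4 haplotype classes, with 6 of each sex, and do not say which parental segments a class carries. Arrays were scanned on 4 days per tissue, 12 arrays a day. The stated aim of the study was to find expression QTLs in relation to chromosome 2 and obesity.

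Oxidative phosphorylation passes electrons from NADH through complex I, or from succinate through complex II, to ubiquinone, then through complex III and cytochrome c to oxygen at complex IV. Complexes I, III and IV pump protons across the inner mitochondrial membrane, and the returning protons drive ATP synthase, complex V. Most nuclear-encoded subunits have 1 gene, but several complex IV subunits come as a pair of isoforms, 1 found in most tissues and 1 typical of heart, skeletal muscle or brown fat. Cox8b and Cox7a1 are known in mice as genes of muscle and of brown and beige fat, and Cox6a2 as a gene of heart and skeletal muscle.

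Levels are log2 array signals after background correction and quantile normalization, and a value near 6 is at background. Of the 87 genes, 61 were detected above background on all 96 arrays, 74 passed the detection minimum in fat, 72 in liver, 71 in both tissues and 75 over both tissues together. The 12 genes that did not pass over both tissues were Atp5md, Cox6a2, Cox6b2, Cox7b2, Cox8c, Ndufaf6, Ndufb11, Ndufc2, Ndufs1, Sdha, Uqcrfs1 and Uqcrq. Sdha, the flavoprotein of complex II, and Uqcrfs1, the Rieske iron-sulphur protein of complex III, were above background on 0 of 96 arrays, which gives no level for these genes. Arrays detected 6582 to 10002 probes in fat and 5519 to 9060 in liver. Markers fitted the labelled tissues, with 8 of 10 adipocyte genes on the array above background on every fat array and 6 of 9 hepatocyte genes on every liver array. Skeletal muscle genes were above background on some fat arrays, 3 or more of the 13 listed genes on 9 female and 1 male arrays, and on 0 of 48 liver arrays. Their summed signal ran from 789 to 73347 in female fat with a median of 1208, and from 757 to 977 in male fat. Testis germ cell genes were detected, 3 or more at a time, on 5 male fat arrays, and epididymis genes on 1.

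Between the tissues, the genes did not move as a block. In fat 30 of the 75 tested genes were higher and 30 were lower than in liver, and 15 were not called. Over all 11718 tested probes, 47.9% were called higher in fat and 38.8% lower, shares near those of these genes. The median difference was -0.0077 log2 over these genes and 0.0398 over all probes. In bulk tissue, fewer cells of a type and less RNA per cell cannot be told apart in any of these values. Each scanning day held 1 tissue, and with day as a random block 52 of the 60 calls kept their direction and call. With median centring in place of the quantile step, all probes shifted by -0.54 log2, 26 of the 60 genes took the opposite sign, and 16 still did after that shift was removed. The directions given below for single genes held under both removals of the shift unless a sentence says otherwise.

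**Figure D1:**
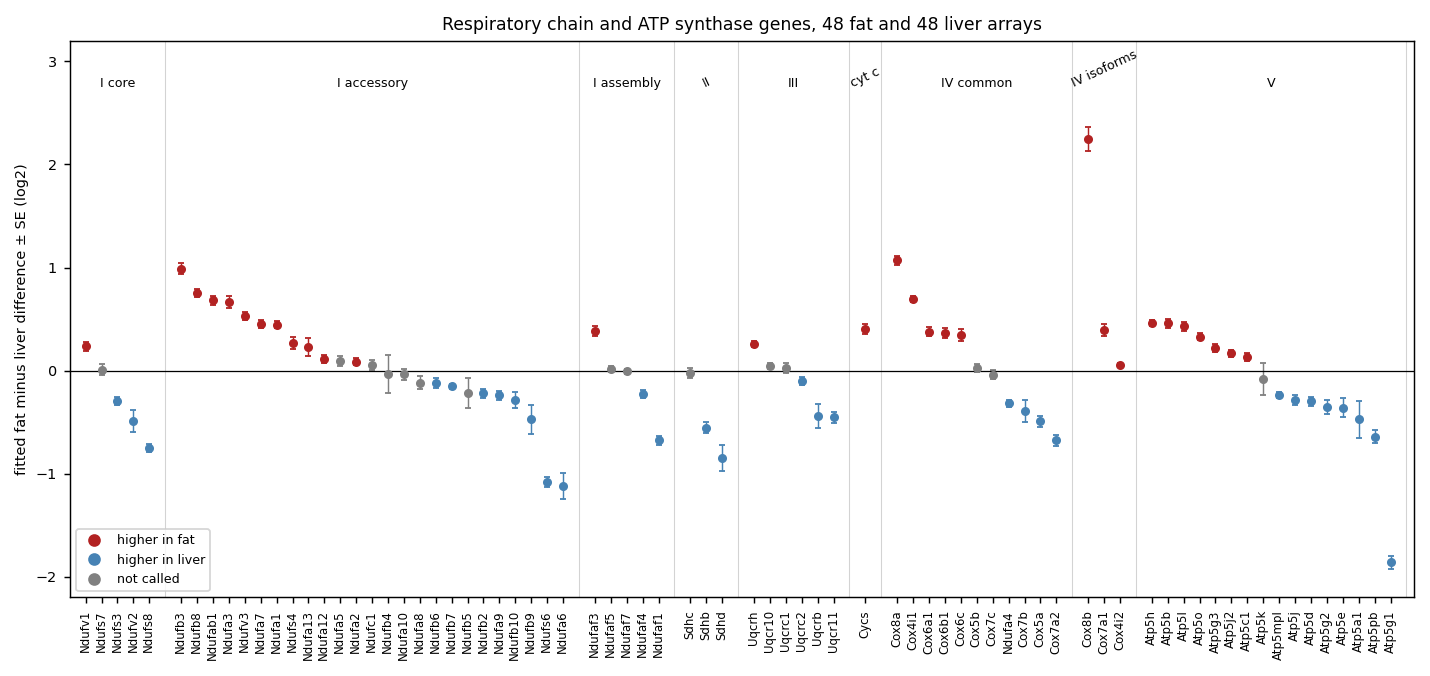
Fitted fat minus liver difference (log2) of the 75 tested genes with its standard error, 48 arrays per tissue, grouped by complex and ordered within it. Points above 0 are higher in fat, with Cox8b at 2.24 and Atp5g1 at -1.86, and complexes I, III, IV and V each have called genes on both sides of 0.

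Complex IV, cytochrome c oxidase, held the largest differences in favour of fat. Cox8b, the muscle and brown fat isoform of subunit 8, ranged from 6.32 to 11.35 in fat with a median of 8.21, and from 5.86 to 6.06 in liver with a median of 5.98. It was above background on 48 of 48 fat arrays and 0 of 48 liver arrays, and no fat array fell into the liver range. The fitted difference was 2.24 ± 0.12 (SE) log2 with an adjusted p of 3.2e-33, and since liver gave only a background level, Cox8b was at least 3.76-fold higher in fat.

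Cox8a, the counterpart of Cox8b that most tissues express, was also higher in fat. It ranged from 11.61 to 12.85 in fat (median 12.28) and from 10.79 to 11.60 in liver (median 11.19). The 48 fat arrays lay above the 48 liver arrays, by 1.07 ± 0.04 log2 or 2.1-fold (adjusted p = 2.6e-44). These 2 were the only genes of the 75 tested whose fat arrays all exceeded their liver arrays, against 9.68% of all tested probes.

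The promoters of these subunit 8 genes are shown because both transcripts differed between the tissues without overlap. They run from 250 bases before the start to 50 after it, from RefSeq on GRCm38.p6, 5' to 3' on the gene's strand, with capitals marking matches to any of 5 motifs, searched on both strands. The TATA box was searched as TATAAA, and the E box, a site of muscle and other helix-loop-helix factors, as CAGCTG. The site of ETS factors, which include regulators of respiratory genes, was searched as CCGGAAG. The site of estrogen-related receptors (ERR) was searched as AAGGTCA, and the NRF1 motif, a site of nuclear respiratory factor 1, was the last. Cox8b lies on the minus strand at chr7:140900397-140900696 and Cox8a on the minus strand at chr19:7217567-7217866.
Cox8b: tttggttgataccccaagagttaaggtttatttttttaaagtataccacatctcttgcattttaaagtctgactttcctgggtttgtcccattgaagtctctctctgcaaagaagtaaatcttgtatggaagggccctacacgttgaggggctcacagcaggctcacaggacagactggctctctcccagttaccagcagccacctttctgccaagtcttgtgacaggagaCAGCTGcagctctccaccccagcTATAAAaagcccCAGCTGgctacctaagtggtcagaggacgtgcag
Cox8a: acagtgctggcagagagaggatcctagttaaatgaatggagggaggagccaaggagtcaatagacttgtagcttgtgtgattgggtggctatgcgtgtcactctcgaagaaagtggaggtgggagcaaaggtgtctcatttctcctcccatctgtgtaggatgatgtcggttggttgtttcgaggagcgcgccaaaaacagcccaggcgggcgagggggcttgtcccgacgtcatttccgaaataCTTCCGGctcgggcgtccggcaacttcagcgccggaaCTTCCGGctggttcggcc
Cox8b had 1 match to the TATA box letters and 2 E box matches and none of the other motifs. The match to the TATA box letters and the later E box match lay after the start. Cox8a had 2 ETS matches and none of the others, and no matches overlapped. The promoters of Cox7a1 and Cox7a2 held 0 matches to these motifs. Of 77 promoters of the genes that were in the table at full length, 23.4% held the ETS letters against 8.86% of all 32841 promoters, 23.4% against 4.6% held the NRF1 motif, and 9.09% against 4.72% the ERR letters. The TATA box letters stood in 11.7% against 13.6%, and the E box letters in 6.49% against 16.3%. These are matches of letters and no binding was measured.

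Cox7a1, the muscle and brown fat isoform of subunit 7a, was close to background in both tissues. It ranged from 6.16 to 8.98 in fat (median 6.49; above background on 45 of 48 arrays) and from 5.98 to 6.43 in liver (median 6.13; 3 of 48 arrays). The ranges overlapped, and the difference was 0.40 ± 0.06 log2 (adjusted p = 2.1e-09). Its counterpart Cox7a2 went the other way, from 6.73 to 7.94 in fat (median 7.39) against 7.43 to 8.71 in liver (median 8.18), a difference of -0.68 ± 0.06 (adjusted p = 4.1e-20).

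Cox4i1, which most tissues use for subunit 4, was higher in fat by 0.70 ± 0.03 log2 (adjusted p = 4.1e-39), with medians of 13.06 in fat and 12.37 in liver. Fat arrays ran from 12.71 to 13.57 and liver arrays from 12.07 to 12.74, so that the ranges touched only at their ends. Cox4i2, its hypoxia-responsive isoform, was above background on 13 fat and 0 liver arrays, and both tissues had means near background, 6.17 and 6.11. Its called difference of 0.06 reversed to -0.06 with the deposited values and to -0.07 with median centring, both with the tissues aligned. Cox6a1, the common isoform of subunit 6a, was higher in fat by 0.38 ± 0.04, and Cox6b1, the common isoform of subunit 6b, by 0.37 ± 0.05. Both turned to slightly lower in fat with aligned median centring, -0.04 and -0.03. Cox6b2 and Cox7b2, known from testis, were above background on 5 and 2 fat arrays and on 2 and 0 liver arrays, and the testis isoform Cox8c on 0 of 96. Cox5a, which partners Cox5b in the matrix-facing part of the complex, was lower in fat by 0.49, and Ndufa4, long counted with complex I and now placed in complex IV, by 0.32. Cox7b was lower in fat by 0.39, a call that was lost without scanning day 1 of the liver arrays (adjusted p over 0.05, difference -0.03).

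ATP synthase had genes on both sides, 7 of 16 higher and 8 lower in fat, but this split depended on the normalization. With aligned median centring, Atp5b, Atp5c1, Atp5g3, Atp5j2, Atp5l and Atp5o of the higher group reversed and its last member, Atp5h, was not called. Atp5g2 and Atp5j of the lower group reversed as well. Atp5d, Atp5g1, Atp5mpl and Atp5pb stayed lower and called under all 16 alternatives in which single genes were compared. Atp5g1, Atp5g2 and Atp5g3 encode the same mature c subunit of the membrane rotor with different import sequences. Atp5g1 ranged from 8.01 to 9.46 in fat (median 8.64) and from 10.20 to 11.07 in liver (median 10.54). The liver arrays all lay above the fat arrays, 3.63-fold on average, with a fat minus liver difference of -1.86 ± 0.06 log2 (adjusted p = 2.1e-48). Atp5g2 had medians of 7.68 in fat and 8.10 in liver with overlapping ranges, a difference of -0.35 ± 0.07 that reversed to 0.04 and 0.10 with aligned deposited values and aligned median centring. Atp5g3 had medians of 12.91 in fat and 12.75 in liver, a difference of 0.22 ± 0.04 that reversed to -0.23 with aligned median centring. Of the c subunit genes, Atp5g1 alone kept its direction under all of those 16 alternatives. Atp5h, a subunit of the peripheral stalk, was higher in fat by 0.46 ± 0.03, and Atp5b, the catalytic beta subunit, by 0.46 ± 0.04, but with aligned median centring Atp5h was at 0.05, not called, and Atp5b at -0.05. Atp5pb, subunit b of the stalk, was lower in fat by 0.64 ± 0.06.

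Complex I, the NADH dehydrogenase, also split within itself. Of its 25 tested accessory subunits, 11 were higher and 8 lower in fat, and of 5 tested core subunits 1 was higher and 3 were lower. The higher core subunit, Ndufv1, reversed with aligned median centring, as did the higher accessory subunits Ndufa13 and Ndufa2. Ndufb3, Ndufb8 and Ndufab1, accessory subunits of the membrane arm, were higher in fat by 0.99 ± 0.05, 0.75 ± 0.04 and 0.68 ± 0.04 log2. Ndufab1 is also the mitochondrial acyl carrier protein. Ndufb3 ranged from 9.20 to 10.62 in fat (median 9.98) and from 8.48 to 9.41 in liver (median 8.95), with a small overlap. Ndufa3 and Ndufv3 were higher by 0.67 ± 0.06 and 0.53 ± 0.04.
Ndufs6 and Ndufa6 led the other direction, lower in fat by 1.08 ± 0.05 and 1.12 ± 0.13. Ndufs6, an accessory subunit needed late in assembly, ranged from 6.89 to 8.29 in fat (median 7.66) and from 8.40 to 9.09 in liver (median 8.73). Like Atp5g1 it had no overlap between tissues, which 2 of the 75 genes showed in favour of liver, against 7.95% of all probes. Ndufa6, an accessory subunit of the LYR family, had overlapping ranges, 6.68 to 8.64 in fat and 6.77 to 9.75 in liver. Ndufs8, an iron-sulphur core subunit, was lower in fat by 0.75 ± 0.04, and the assembly factor Ndufaf1 by 0.68 ± 0.04. Means of the 4 scanning days separated the tissues for 21 genes in favour of fat and 13 in favour of liver, where 37.7% and 25.6% of all probes did.

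Complex II, succinate dehydrogenase, which also belongs to the citric acid cycle, was lower in fat for both of its called genes. Sdhb, the iron-sulphur subunit, ranged from 8.72 to 10.11 in fat (median 9.47) and from 9.31 to 10.31 in liver (median 10.01), a difference of -0.55 ± 0.05 (adjusted p = 1.6e-17). Sdhd, a membrane anchor, had medians of 7.97 and 8.84 and differed by -0.85 ± 0.13 (adjusted p = 2.5e-09). Sdhc, the other membrane anchor, had medians of 10.78 and 10.81 and did not pass the test (difference -0.02 ± 0.05, adjusted p = 0.69). Complex III passes electrons from ubiquinol to cytochrome c, and of its 6 tested genes 1 was higher and 3 were lower in fat. Uqcr11, a small subunit, ranged from 9.59 to 11.04 in fat (median 10.45) and from 10.38 to 11.24 in liver (median 10.95). Its difference of -0.45 ± 0.05 stayed called under all 16 alternatives in which single genes were compared. Uqcrh, the hinge protein, had medians of 12.23 and 11.97 and a difference of 0.26 ± 0.03, which reversed to -0.18 with aligned median centring. Cycs, the somatic cytochrome c gene, was higher in fat by 0.41 ± 0.05 (adjusted p = 1.0e-12), with overlapping ranges of 9.05 to 10.35 and 9.03 to 9.89.

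Citric acid cycle genes outside these complexes moved further in places. Against the same shares of all probes, 47.9% higher and 38.8% lower, 6 of the 12 tested were higher and 3 lower in fat, among them Cs, citrate synthase, by 1.70 ± 0.05 and Idh3a, a subunit of NAD-dependent isocitrate dehydrogenase, by 1.10 ± 0.05, while Suclg1, a subunit of succinyl-CoA ligase, had a difference of -1.49 ± 0.07. Of 15 tested assembly factors and regulators of the chain that the symbol rule does not take in, 4 were higher and 10 lower in fat. Atpif1, the inhibitor of ATP synthase hydrolysis, was higher by 1.32 ± 0.07, while Cox16 and Ecsit, assembly factors of complexes IV and I, were lower by 0.62 ± 0.05 and 0.53 ± 0.03. Of 10 regulators of mitochondrial biogenesis 2 were higher and 6 lower, with differences of -2.52 ± 0.06 for Sirt3, a mitochondrial deacetylase, -0.66 ± 0.03 for Tfam, a mitochondrial transcription factor, and 0.90 ± 0.10 for Ppard.

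Where a gene had other tested probes, most pointed the same way. Beside a called probe, 13 of 16 other probes had the same sign between the tissues and 12 of those were called. The other probe of Ndufaf3 went against its brightest probe with a call of its own, -0.07 against 0.39, at a level near background. Beside a brightest probe that was not called, the other probes of Atp5k, Ndufaf5 and Ndufaf7 had the same sign. Those of Cox5b (-0.46, adjusted p = 4.5e-11), Cox7c (0.12, adjusted p = 0.0032) and Ndufa5 (-0.34, adjusted p = 0.011) were called with the opposite sign. The Cox5b and Cox7c probes were bright, with means of 9.71 and 11.49.

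Sex differences in fat touched 9 of 74 genes. Cox8b, Cox7a1 and Sdhc were called higher in females, and Ndufb8, Ndufa6, Ndufv3, Ndufv1, Atp5g3 and Atp5b lower. Over all probes 12.1% were called higher and 10.5% lower in females, and the shares of these genes, 3 and 6 of 74, were below both. The median female minus male difference was -0.05 over these genes, of which 51 were negative and 23 positive, and 0.006 over all probes. The female and male ranges overlapped for all 9 called genes. Each class had arrays of a single sex on each scanning day, so a comparison of the sexes within a day also compares classes, and the fit separates them only by adding the effects of class and day. Markers of stroma and endothelium also had a higher median signal in female fat, while those of adipocytes overlapped widely. The summed signal of the 9 stroma and endothelium genes, 8 of which were detected, had a median of 9950 (7850 to 13826) in females and 7653 (6702 to 9891) in males, with Col1a1, a collagen chain, at 8.77 and 7.67 and Thy1 at 8.20 and 7.08, while Kdr was at background on every fat array. The summed signal of the 10 adipocyte genes had a median of 38367 (25453 to 53564) in females and 36070.1 (21119.7 to 49734) in males. Plin1, the perilipin of lipid droplets, went against the direction of these sums, with medians of 8.08 in females and 8.62 in males. The part of these cells in the sex differences was not tested.

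Ndufb8, an accessory subunit of complex I, had the smallest p. It ranged from 10.80 to 11.49 in females (median 11.16) and from 11.07 to 11.75 in males (median 11.51), n = 24 each. Females were lower by 0.29 ± 0.05 log2 (adjusted p = 2.7e-05) and on 4 of 4 scanning days. Ndufv3, a small accessory subunit beside the flavoprotein, had medians of 11.20 in females and 11.35 in males, a difference of -0.20 ± 0.05 (adjusted p = 0.00085) seen on 4 of 4 days. These were the genes that stayed called under all 11 alternatives. A second probe of Ndufv3 gave -0.15 (adjusted p = 6.4e-05), and a second probe of Ndufb8 gave -0.05 (adjusted p = 0.17) and was not called. Both second probes lay near background, with means of 6.22 and 6.23.
Ndufa6 was lower in females by 0.36 ± 0.10 (adjusted p = 0.0091; 3 of 4 days), with medians of 7.63 and 8.10. Ndufv1, the flavoprotein core subunit that binds NADH, was lower by 0.20 ± 0.05 (adjusted p = 0.0066; 4 of 4 days). Atp5g3 and Atp5b were lower by 0.15 ± 0.05 and 0.13 ± 0.05 (adjusted p = 0.031 and 0.037), each on 4 of 4 days. Without scanning day 3, Ndufa6 (difference -0.19, adjusted p = 0.39) was not called. Ndufv1, Atp5g3 and Atp5b were not called there either (adjusted p = 0.22, 0.19 and 0.18).

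Cox8b was higher in female fat. It ranged from 7.14 to 11.16 in females (median 8.70) and from 6.34 to 9.23 in males (median 8.10), a difference of 0.80 ± 0.21 (adjusted p = 0.0043), and was higher in females on 4 of 4 days. Cox7a1 ranged from 6.15 to 9.08 in females (median 6.67) and from 6.13 to 6.95 in males (median 6.48), a difference of 0.34 ± 0.12 (adjusted p = 0.034). Sdhc had medians of 10.69 and 10.56, a difference of 0.16 ± 0.06 (adjusted p = 0.028). Without scanning day 3 the Sdhc difference was 0.04 (adjusted p = 0.74), and Cox8b also missed the call without day 3 (0.85, adjusted p = 0.052) or day 7 (0.60, adjusted p = 0.13). Cox7a1 was not called without day 3 either, where 0 genes were higher in females. Without day 8, without the outlying arrays or without a detection filter, 1 gene was called higher in females in each case. The 3 calls were lost without the 10 arrays that held muscle transcripts, where adjusted p was 0.054 for Cox8b (difference 0.60), 0.15 for Cox7a1 (0.16) and 0.21 for Sdhc (0.13).

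Muscle transcripts stood high together with these isoforms on some fat arrays and not on others. Cox6a2, the striated muscle isoform of subunit 6a, was above background on 6 fat arrays, all from females and all among the 10 with 3 or more muscle genes. Its highest values were 11.14, 8.52, 7.52 and 7.36, while the 15 female arrays with fewer muscle genes ran from 5.84 to 6.04 and the 23 such male arrays from 5.75 to 6.00. The female array with the highest Cox6a2, class 3 replicate 10, also had the highest Cox8b, 11.16, and the highest Cox7a1, 9.08, with all 13 muscle genes above background. By contrast, female class 2 replicate 1, with 7 muscle genes above background, had the lowest Cox7a1 of the female arrays, 6.15. Female class 2 replicate 4 had Cox8b at 9.74 with Cox6a2 at 5.94.
Cox8b was also detected where muscle genes were few. Without those 10 arrays it was above background on 15 of 15 female arrays (7.14 to 9.37, median 8.70) and on 23 of 23 male arrays (6.34 to 9.23, median 8.12). Cox7a1 then ran from 6.21 to 7.19 in females (median 6.59) and from 6.13 to 6.95 in males (median 6.48). The fat minus liver differences without them were 2.12 for Cox8b and 0.33 for Cox7a1, and both stayed called.
Brown and beige fat markers were looked at in the same way. Of the 10 such genes on the array, 3 or more were above background on 7 female and 17 male fat arrays, and their summed signal had medians of 661 (607 to 1008) in females and 736 (613 to 1264) in males. Ucp1, the uncoupling protein that defines brown fat, was above background on 5 female and 5 male fat arrays, and Cidea, a lipid droplet protein of brown fat, on 7 and 10. Dio2, Prdm16, Elovl3 and Zic1 were above background on 0 fat arrays, and the count came mostly from Ebf2, on 24 female and 22 male arrays, Mpzl2, on 11 and 19, and Slc27a2, on 1 and 10. Liver expresses some listed genes too, and 22 of 24 male liver arrays had 3 or more. Over the 48 fat arrays, after sex, class and day were removed, Cox8b had r = 0.55 with Ucp1 and 0.50 with Cidea, and 0.43 and 0.42 over the 38 arrays with fewer muscle genes. Their part in the Cox8b levels was not tested.

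**Figure D2:**
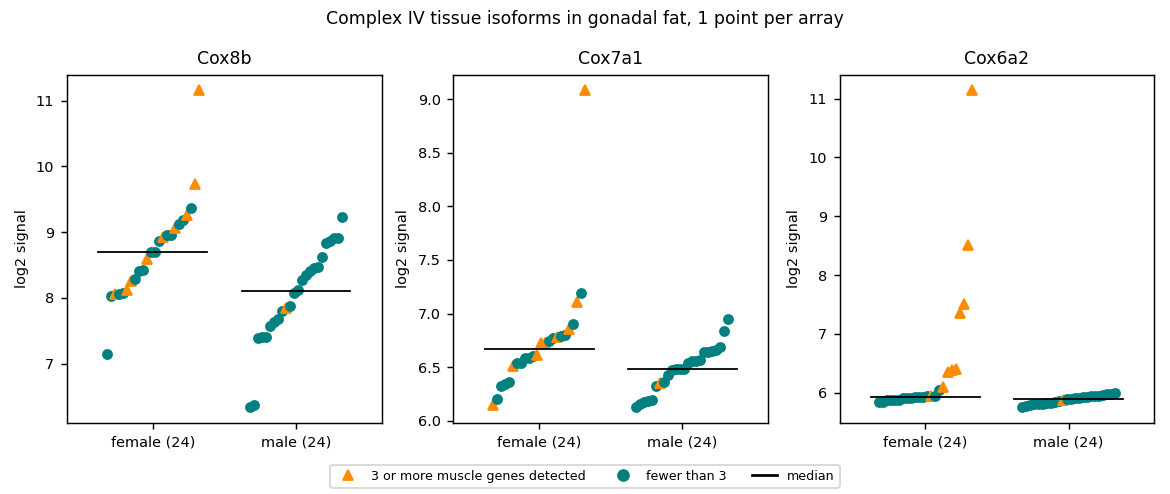
Log2 signal of Cox8b, Cox7a1 and Cox6a2 on each of the 48 fat arrays by sex; triangles are the 10 arrays with 3 or more skeletal muscle genes above background, and lines are medians. The 6 arrays with Cox6a2 above background are all triangles, while Cox8b is at 6.34 or higher on every array of both kinds.

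The genes whose fat levels followed these isoforms differed between them. After sex, class and scanning day were removed, Cox7a1 went over the 48 fat arrays with Hspb6, a small heat shock protein of muscle (r = 0.85), with Myl1, a myosin light chain (0.85), Ptp4a3 (0.84), Adssl1 (0.82), Eno3, muscle enolase (0.79), Ak1 (0.78), Ky (0.76) and Pfkm, muscle phosphofructokinase (0.75). Cox8b went with Cs (0.66), Slc36a2, an amino acid transporter (0.66), Ndufs3 (0.65), Cpt2 and Etfdh of fatty acid oxidation (0.65 and 0.64), Dlat of pyruvate dehydrogenase (0.64), Echs1 (0.64) and Coq6, an enzyme of ubiquinone synthesis (0.64). Without the 10 arrays with muscle genes, the genes most like Cox7a1 were Aldh1l1 (0.71), Ldha (0.69), Mrpl43 (0.68) and Acadl (0.68), and those most like Cox8b were 1700037H04Rik (0.74), Nat8l (0.73), Pcx, pyruvate carboxylase (0.71) and Pdha1 of pyruvate dehydrogenase (0.71). Cox8b and Cox7a1 had r = 0.55 with each other over 48 arrays and 0.35 over the other 38. These correlations describe arrays that share their processing and carry no test.

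Sex differences in liver touched 8 of 72 genes, 3 higher and 5 lower in females, where 16.7% and 17.4% of all probes were called. The median difference was -0.007 over these genes and -0.003 over all probes, and the ranges of the sexes overlapped for all 8. Cycs showed the largest called difference. It ranged from 8.93 to 9.52 in females (median 9.28) and from 9.03 to 9.93 in males (median 9.50), and was lower in females by 0.33 ± 0.06 (adjusted p = 6.2e-05) on 4 of 4 days. Ndufa7, an accessory subunit of complex I, ranged from 9.84 to 10.37 in females (median 10.21) and from 9.46 to 10.24 in males (median 9.94), higher in females by 0.22 ± 0.05 (adjusted p = 0.0002) on 4 of 4 days. Ndufa4 was lower in females by 0.18 ± 0.05 (adjusted p = 0.0031; 4 of 4 days). These stayed called under all 10 alternatives.
Ndufa10, an accessory subunit of the membrane arm, and Uqcr10, a small subunit of complex III, were lower in females by 0.19 ± 0.05 and 0.13 ± 0.04, each on 4 of 4 days. Ndufv3 was lower by 0.12 ± 0.04, on 3 of 4 days. Ndufv1 and Ndufb8 were higher by 0.13 ± 0.04 and 0.12 ± 0.04, on 4 and 3 of 4 days. The last pair lost the call without scanning day 1 (adjusted p = 0.26 and 0.31), without day 5 (0.088 and 0.29) and with median centring (0.18 and 0.17), a setting that moved the median of all probes by -0.12.

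The interaction of sex and tissue was called for 10 of 75 genes, 5 in each direction, against 14.5% and 13.2% of all probes. Ndufb8 and Ndufv1 went opposite ways, lower in females in fat and higher in females in liver, with differences between the tissues of -0.41 ± 0.06 (adjusted p = 7.4e-08) and -0.34 ± 0.07 (adjusted p = 7.3e-05). Both kept the call under all 14 alternatives. Cox8b differed by 0.87 ± 0.23 (adjusted p = 0.0024), and its liver arrays were at background in both sexes, from 5.99 to 6.13 in females and 5.96 to 6.12 in males. Without the arrays with muscle genes that difference was 0.63 (adjusted p = 0.013). Ndufv3, by contrast, was lower in females in both tissues.
Among genes outside the complexes, Esrra, a nuclear receptor that drives genes of the respiratory chain, was lower in females in fat by 0.29 ± 0.06 and in liver by 0.14 ± 0.05. Sirt3 was lower in female fat by 0.26 ± 0.06 and higher in female liver by 0.36 ± 0.09. Of the citric acid cycle genes, 3 of 11 were lower in female fat, Idh3g, Suclg1 and Idh2, by 0.38 ± 0.08, 0.32 ± 0.11 and 0.27 ± 0.10, and 3 of 12 were higher in female liver, Idh2 by 0.81 ± 0.14. The shares of all probes called were 12.1% higher and 10.5% lower in female fat, and 16.7% and 17.4% in female liver. Of the regulators of biogenesis 2 of 8 were called in fat, both lower in females, and 5 of 9 in liver, 4 of them higher in females. Of the other assembly factors and regulators, 1 of 15 was lower in female fat, and in female liver 1 was higher and 4 were lower, Cox18 and Cox19 by 0.56 ± 0.05 and 0.54 ± 0.05.

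**Figure D3:**
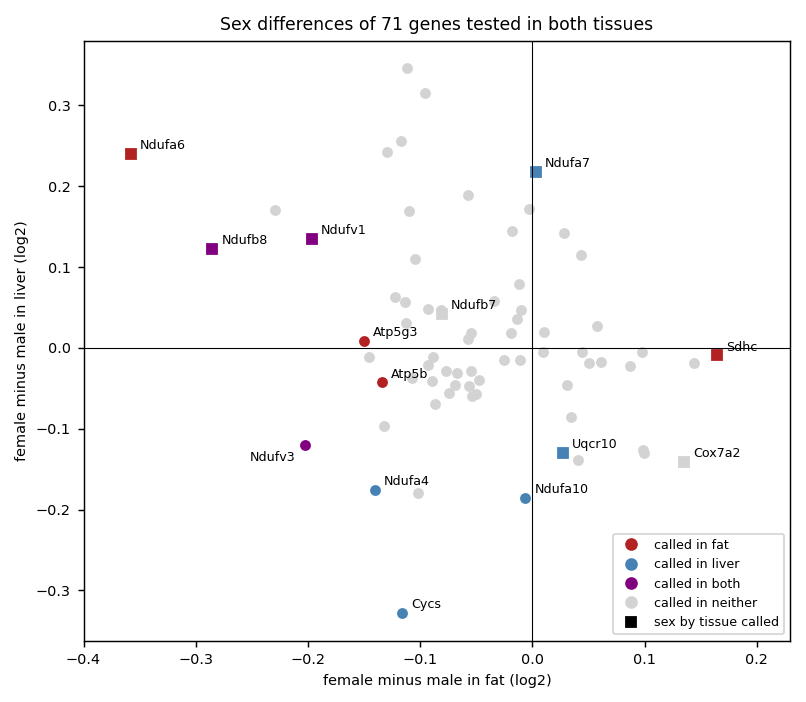
Female minus male difference (log2) in fat against that in liver for the 71 genes tested in both tissues; colours give the tissue in which the difference was called and squares the called sex by tissue interactions. Ndufb8 and Ndufv1 lie left of 0 and above 0, and Cycs lies lowest.

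Haplotype class was called for 0 of 74 genes in fat and 0 of 72 in liver with limma's moderated F-test, where 0.401% and 0.317% of all probes were called. At an unadjusted p under 0.05 there were 2 genes in fat and 1 in liver. In fat the smallest p was that of Ndufb7, an accessory subunit of complex I, whose class means were 6.08 ± 0.14, 6.07 ± 0.16, 6.07 ± 0.10 and 6.19 ± 0.14 (SD, n = 12) in classes 1 to 4 (adjusted p = 0.25). Atp5e, the epsilon subunit of ATP synthase, followed with 6.23 ± 0.20, 6.22 ± 0.12, 6.27 ± 0.22 and 6.39 ± 0.11 (adjusted p = 0.30), and then Atp5g2 (adjusted p = 0.43). With median centring 3 genes were called in fat, where 25.8% of all probes were. In liver Ndufs7, an iron-sulphur core subunit, had class means of 9.84 ± 0.15, 9.76 ± 0.24, 9.67 ± 0.16 and 9.71 ± 0.22 (adjusted p = 0.87), followed by Ndufaf7 and Atp5pb (0.98 and 1.00).
The gap between the highest and lowest class mean had a median of 0.12 log2 over the 74 genes in fat and 0.08 over the 72 in liver. It was widest for fat Cox8b, 0.71, with class means of 8.45 ± 0.64, 7.96 ± 1.00, 8.67 ± 0.99 and 8.46 ± 0.46. The interaction of class and tissue was called for 0 of 75 genes (0.179% of all probes), with the smallest p for Sdhc, Ndufs6 and Cox8b (adjusted p = 0.69, 0.71 and 0.74), and 0 genes were at an unadjusted p under 0.05. The interaction of sex and class was called for 0 genes in either tissue and for 0% of all probes, with 1 gene in each tissue at an unadjusted p under 0.05, Cox8b in fat and Uqcr10 in liver.

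Scanning day took a larger share of the variance of these genes in liver. There the median share was 45.2% over 72 genes and 21.3% over all probes, and 27 genes (37.5%) had over 50%, against 12.1% of all probes. In fat the medians were 23.8% and 21.4%, with 7 of 74 genes over 50%. Of the 27 liver genes, 10 had their highest day mean on day 1 and 16 their lowest.
Atp5a1, the alpha subunit of ATP synthase, had liver day means of 10.80, 8.12, 8.82 and 9.04 on days 1, 2, 5 and 6. Ndufb4, an accessory subunit of complex I, had 8.84, 6.32, 6.61 and 6.84, with 82.9% of its variance between days. Ndufb5, Atp5k, Sdhd, Ndufb9, Cox7b, Atp5e, Ndufb10 and Ndufb2 were likewise highest on day 1.
Atp5b, the partner of Atp5a1 in the catalytic head, went the other way, with 12.71 on day 1 and 12.99 to 13.10 on the other days. Sdhc had 10.48 on day 1 and 10.84 to 11.06 on the others. Atp5a1 was lower in fat than in liver by 0.47, and without day 1 the difference was 0.003 (adjusted p = 0.98). Ndufb9, Ndufb10, Uqcrb, Atp5e, Cox7b, Ndufa2 and Ndufa12 also lost their call between the tissues without that day.

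**Figure D4:**
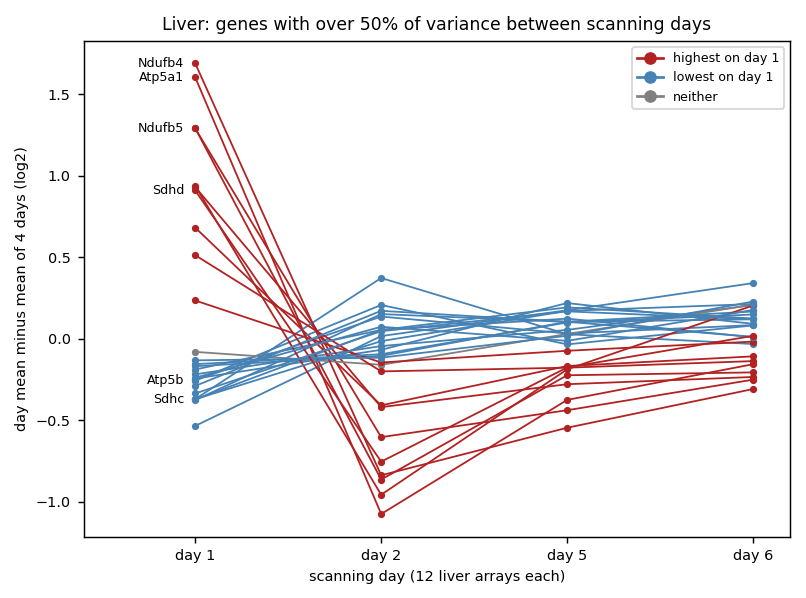
Mean log2 signal of the 12 liver arrays of each scanning day, relative to the mean of the 4 days, for the 27 genes with over 50% of their variance between days. The 10 genes highest on day 1 (red) stand apart there, led by Ndufb4, 2.25 above the mean of its other days, and the 16 lowest on day 1 (blue) lie at most 0.71 below theirs.

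Co-variation within a tissue, after sex, class and day were removed, also differed. In fat the median Pearson r over 2701 pairs of these genes was 0.29, with 13.4% of pairs below 0. Over all pairs of tested probes in fat the median was -0.002, with 50.4% below 0. Pairs within a complex had 0.28 and pairs between complexes 0.29. In liver the median was 0.17 over 2556 pairs, and 34.9% were below 0. Over all pairs of tested probes in liver the median was -0.0002, with 50.0% below 0. These pairs share arrays and their processing, and r is given as a description.
Against Atp5b, 0 of 73 other genes had r below -0.3 in fat (7.20% of all probes), and 36 had r above 0.3 (49.3%, against 10.5% of all probes). In liver 38 of 71 had r above 0.3 (53.5%, against 24.4%) and 17 had r below -0.3 (23.9%, against 19.1%), among them Ndufb5 (-0.72), Ndufa6 (-0.71), Ndufa13 (-0.70), Uqcrb (-0.67) and Atp5a1 (-0.66). Atp5a1 and Atp5b had r = 0.10 in fat. Within complex II in liver, Sdhb went with Sdhd (0.44) and with Sdhc (0.35), while Sdhc and Sdhd had -0.22. Among the 27 liver genes with over 50% of their variance between days, the 10 highest on day 1 were all among these 17. Of the rest of the 17, under that 50% share, Ndufa6, Ndufa13, Uqcrb, Ndufs4, Cox6c and Cox7a2 were also highest on day 1, and Ndufv2 was not. Of the genes with r above 0.3, Ndufv1 (0.77) alone was highest on day 1, with 11.219 against 11.206 on day 2. Whether the patterns have 1 source was not tested.

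**Figure D5:**
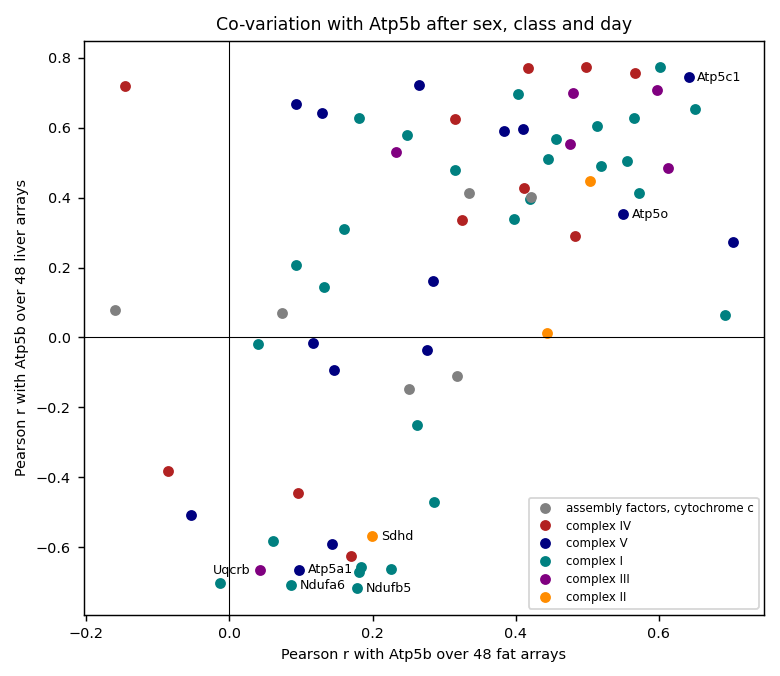
Pearson r with Atp5b over the 48 fat arrays (x) and the 48 liver arrays (y) after sex, class and scanning day were removed, 1 point per gene, coloured by complex. No gene lies below -0.3 on the fat axis. The 17 genes below -0.3 in liver (23.9%, against 19.1% of all probes) are in complexes I to V. Of these, Ndufb2 (-0.56) was not tested in fat and has no fat value.

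Levels in the fat and the liver of the same mouse were set against each other. Over the 48 mice, the correlation of the fat and liver residuals had a median of 0.05 over the 71 genes tested in both tissues, from -0.22 to 0.34 (Uqcrh), against a median of 0.04 over all 7376 probes tested in both.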

How the data were processed

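RNA from fat and liver of 48 mice had been labelled as biotinylated cRNA and read on Illumina bead arrays. The deposited table gives the scanner intensity of each probe without background correction or normalization, per the file headers. Its detection p-value columns, deposited under that name, rise with signal and were read as 1 minus p. A deposited matrix of log2 values had been normalized by the authors with lumi, per the submitters' processing notes, and served as an alternative.

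In R 4.3.3, limma 3.58.1 (neqc, offset 16, then lmFit and eBayes with a trend) processed signals within each tissue for sex and class, and over 96 arrays between tissues. Probes with detection p under 0.01 on at least 12 arrays were tested, 10217 in fat, 8504 in liver and 11718 jointly. Within-tissue and interaction models had scanning day as a term. Benjamini-Hochberg adjusted p under 0.05 over all tested probes was called. Files of 46116 probes name no genome build, and gene positions come from RefSeq alone. Arrays limit precision by their number, 24 per sex and 12 per class. The code was tested on simulated data, where in fat 98 of 100 probes shifted by 1 log2 between the sexes and 89 of 100 shifted by 0.5 were called among 10217, with 12 unshifted probes called. Recovery at the same sizes, 1 and 0.5, was 98 and 80 for class in fat, 95 and 79 for class in liver, 78 and 65 for sex by tissue, 73 and 46 for class by tissue, and 66 and 35 in fat and 91 and 50 in liver for sex by class.

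Gene lists, members and rules for named genes were chosen with earlier results of these data known. Named were the genes with the largest called differences, up to 10 per direction between tissues and 8 for sex, the smallest p elsewhere, and always the complex IV isoforms, Atp5g1 to Atp5g3, Cycs and the Sdh genes. Mouse numbers pair fat and liver arrays of 1 animal, and the pairing entered only as an alternative. Lists of ovary and uterus, macrophage, lymphocyte, stroma, mesothelium and erythrocyte genes were checked as well. Ovary and uterus genes were above background on 0 of 48 fat arrays, and macrophage genes, 3 or more, on all 48. Of the lymphocyte genes 3 or more were above background on 7 female and 3 male fat arrays, of the mesothelium genes on 21 of each sex, of the stroma and endothelium genes on 24 of each, and of the 3 erythrocyte genes on the array 2 on every fat array.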

Additional observations from a re-analysis of the deposited data

Results flagged for a closer look

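For 10 genes the sex difference was not the same in fat and in liver by the test of the interaction itself. The value given is female minus male in fat less female minus male in liver, on the log2 scale. It was -0.41 for Ndufb8, where females were lower in fat by 0.29 and the liver difference was 0.12, and -0.34 for Ndufv1, with -0.20 in fat and 0.13 in liver. Ndufa6 had -0.56, with -0.36 in fat and 0.24 in liver, the latter not called. Ndufa7 had -0.19 and Ndufb7 -0.12. Cox8b had 0.87 and Cox7a1 0.31, both near background in liver in each sex. Cox7a2 had 0.26, Sdhc 0.19 and Uqcr10 0.16. Ndufb8 and Ndufv1 kept the call under all 14 alternatives, and the other 8 lost it under at least 1, Cox8b without scanning day 7 (adjusted p = 0.053) and Cox7a1, Cox7a2, Ndufa6, Ndufa7, Ndufb7, Sdhc and Uqcr10 under 5 to 10 of them. The share of genes called in either direction was below that of all probes.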

How the results depend on the processing

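Of the 60 calls between fat and liver, 30 kept direction and call under all 16 alternatives in which single genes were compared. Among them were Cox8b, Cox8a, Cox4i1, Cox7a1, Cox7a2, Atp5g1, Cycs, Sdhb, Sdhd, Ndufs6 and Ndufs8. The 16 leave out the deposited values and median centring before the tissues were aligned, which kept 50 and 34 of the 60 calls. With mouse as a replicate block, 30 genes were higher and 30 lower, and 31 and 31 when the difference per mouse was tested. For the interaction of sex and tissue the replicate block gave 6 and 6 genes, and 0 for class and tissue, and all 60 calls between the tissues and all 10 of the interaction kept their direction and call with the replicate block. With median centring, 4 genes were higher and 68 lower in fat, and with the tissues aligned afterwards (added after seeing the data) 15 were higher. The deposited values shifted all probes by -0.11 between the tissues. Single genes were therefore compared after alignment. With aligned median centring the sign reversed for Atp5b (-0.045), Atp5c1 (-0.20), Atp5g2 (0.10), Atp5g3 (-0.23), Atp5j (0.18), Atp5j2 (-0.29), Atp5l (-0.0067), Atp5o (-0.052), Cox4i2 (-0.074), Cox6a1 (-0.043), Cox6b1 (-0.033), Cox6c (-0.080), Ndufa13 (-0.055), Ndufa2 (-0.26), Ndufv1 (-0.11) and Uqcrh (-0.18), and with aligned deposited values for Atp5g2 (0.044), Atp5j (0.047) and Cox4i2 (-0.061). The cause was not tested. Leaving out 1 scanning day gave 28 to 32 higher and 26 to 31 lower genes, and put Atp5a1 between -0.81 and 0.0030, the latter without day 1.

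For sex in fat, leaving out 1 day gave 0 to 3 genes higher and 2 to 7 lower in females, removing 3 outlying arrays gave 1 higher, testing without a detection filter gave 1 higher, with more probes to adjust for, and removing the 10 arrays with muscle genes (chosen after seeing the data) gave 0 higher. For sex in liver, leaving out 1 day gave 1 to 6 higher and 2 to 6 lower, median centring 1 higher and 10 lower, and no filter 3 lower. For the interaction of sex and tissue, leaving out 1 day gave 1 to 6 higher and 2 to 11 lower, median centring 16 higher and 3 lower with Ndufb7 reversed (0.10), no filter 2 higher and 3 lower, and removing arrays with muscle genes 2 higher and 8 lower. Median centring called 3 genes for class in fat. Under every other alternative tried, class and its interaction with tissue gave 0. Cox7a1, Cox4i2, Cox7b and Ndufb7 lay near background, where the offset shrinks differences.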
